A study of Mus musculus with 20 samples.

Results

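The step from a resting to a follicular state was compared between the helper and the regulatory lineage of CD4 T cells in immunised peripheral lymph nodes (pLN). For each gene, the helper step was TFH minus Tnaive, the regulatory step was TFR minus Treg, and the lineage difference was the first step minus the second, all as log2 normalised microarray intensity. A positive lineage difference therefore means a larger rise, or a smaller fall, in the helper lineage. The comparison took 12 of the 20 arrays of the series, those labelled as pLN, and no measured value was used to choose them.

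All cells came from B6.Cg-Foxp3<tm1Mal> mice, which report Foxp3 by EGFP, aged 8 to 14 weeks by the labels and given keyhole limpet hemocyanin in Alum under the skin. Per the labels, each array held cells of mixed gender from 8 to 15 mice; the study's methods give a lower range for the pools. Tnaive cells were sorted as Foxp3-negative, PD1-low and GL7-negative, Treg cells as Foxp3-positive with the same PD1 and GL7 gates, TFH cells as Foxp3-negative, PD1-high and GL7-positive, and TFR cells as Foxp3-positive and PD1-high. TFR cells were taken irrespective of GL7, a surface epitope of germinal-centre cells, so that the follicular gates of the lineages differed in GL7. The Tnaive gate did not use CD44, and the Treg gate did not part resting from effector Treg cells. Slides 1 and 2 each held the 4 cell types of day 12 post immunisation (d12), and slide 3 those of day 25 (d25). Each slide thus gave 1 value of the lineage difference, with 50 ng of RNA per array on slide 1 and 40 ng on slides 2 and 3. Day, RNA input and slide cannot be told apart. P-values and standard errors (SE) measure the spread over these 3 slides that is left once cell type and slide are fitted. That spread is pooled over the 4 cell types and moderated across probes. It is not the spread of the 3 lineage differences alone.

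T follicular helper cells live next to B cells in the germinal centre, where their CD40 ligand and cytokines keep B cells dividing and maturing. Bcl6 is the transcription factor that defines them, CXCR5 draws them towards the follicle, and loss of CCR7 and S1PR1 lets them leave the T-cell zone and stay in the node. T follicular regulatory cells mostly descend from Foxp3-positive Treg cells, take up Bcl6, CXCR5 and PD1 as well, and restrain the reaction. Because naive T cells and Treg cells start from different expression states, the same follicular end point can need a different step in each lineage.

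The sorts carried their defining transcripts. Foxp3 lay between 27.0 and 192 in the Foxp3-negative sorts and between 22050 and 35130 in Treg and TFR cells. The T-cell genes Cd3e and Cd4 were at 92970 to 135800 and 31990 to 70180 on all 12 arrays. Between 43.0% and 54.8% of probes were detected per array. The median local background was 36 to 78 except on d12 TFR replicate 2, where it was 268. In sorted pools, fewer cells expressing a gene and less RNA per cell cannot be told apart.

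Of 18698 tested probes, 1410 (7.54%) differed between the steps. A call needed a log2 difference of 1 or more in size and, from limma, a Benjamini-Hochberg adjusted p below 0.05. By gene, with the brightest tested probe of each of 12365 genes, 652 (5.27%) had a positive and 423 (3.42%) a negative lineage difference. The sign was the same on all 3 slides for each of these 1075 genes, which the call on these same slides largely fixes. Across probes, which are not independent, the lineage differences of the slides correlated with r = 0.769 between slides 1 and 2, 0.637 between slides 1 and 3 and 0.798 between slides 2 and 3. The median SE was 0.161 on the log2 scale. Near the threshold, Smpdl3a with a difference of 1.001 was called and Calhm6 with 0.998 was not.

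Both lineages mostly moved the same genes, and the helper lineage moved them further. The helper step had 1616 risen genes (13.1%) and 995 fallen genes (8.05%), the regulatory step 1288 (10.4%) and 543 (4.39%). Both steps called 1465 genes, which are 56.1% of the helper and 80% of the regulatory list, and 1449 of these moved in the same direction. The helper step was the larger for 1061 of those 1449. Among the 1075 genes with a lineage difference, 370 had moved in the same direction in both lineages, with the helper step larger in 342. A further 296 genes changed in the helper lineage only, meaning that the helper step was called while the regulatory step was not and was below 0.5 in size. By the converse rule, 87 genes changed in the regulatory lineage only. Opposite called steps were found for 16 genes, and the remaining 306 met none of these rules. Seen by the gap between lineages, 474 genes differed at the end (TFH against TFR) but not at the start (Tnaive against Treg), 300 at the start but not at the end, and 53 at both with the sign turned.

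**Figure D1:**
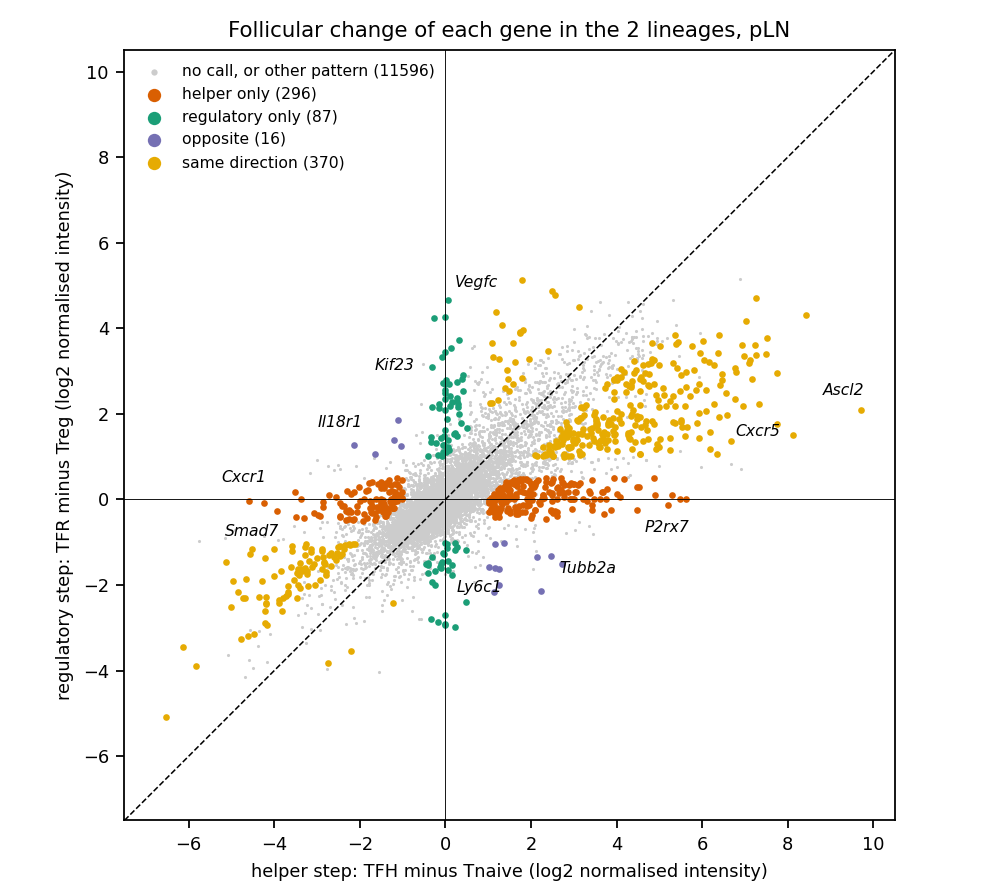
Helper step (x axis) against regulatory step (y axis), both as log2 differences of normalised intensity, for 12365 genes with 1 point per gene. Genes with a called lineage difference are coloured by class, and most same-direction genes (342 of 370) lie nearer the x axis than the dashed line of equal steps.

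To tie each pattern to the piece of transcript that was read, the first 30 of 60 bases are shown for the probes of 7 genes, as the array annotation gives them with mm9 positions (whole probe). Ascl2 stands for the same direction, Elovl7 for the helper lineage only, Vegfc, Acvr1c and Ly6c1 for the regulatory lineage only, and Tgm2 and Il18r1 for opposite steps. No base is marked by capitals.
Ascl2 (chr7:150152734-150152793, minus strand): ggccagtgtgggaaccctgctgttgcaaag
Elovl7 (chr13:109073556-109073615, plus strand): atgatttgtctcaacggttaatgaacgctt
Vegfc (chr8:55271533-55271592, plus strand): tctgtgtttattgaaccatgtggattactg
Acvr1c (chr2:58119888-58119947, minus strand): caaagacaatgaattaagcactcgttgcac
Ly6c1 (chr15:74875495-74875554, minus strand): tattatagtatcaccatccacacataagta
Tgm2 (chr2:157942275-157942334, minus strand): ctgggaagaatcaaactgatgcatttaacg
Il18r1 (chr1:40557541-40557600, plus strand): tgtcacaacagctgtgtgtgaaaacctagc

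Effector and surface genes of TFH cells showed the clearest shift towards the helper lineage. Of 30 listed genes, all tested, 23 had a positive and 0 a negative lineage difference, and the list's median was 2.23 against -0.03 over all tested genes. The helper step raised 24 of them and the regulatory step 16, and neither lowered any. Intensities below are given in the order of slides 1, 2 and 3. Cxcr5, the follicle-homing receptor, measured 802.7, 1557 and 1008 in Tnaive cells and 101900, 86200 and 122900 in TFH cells. In the regulatory lineage it went from 4260, 3233 and 3071 in Treg to 12120, 13680 and 15650 in TFR cells. The groups of both steps did not overlap, Treg cells started above Tnaive cells, and TFR cells ended well below TFH cells. The helper step was 6.57, the regulatory step 1.98 and the lineage difference 4.59 ± 0.35 (SE, n = 3 slides, adjusted p = 0.00012 by limma).

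Among cytokine genes of the list, Il21, which drives germinal-centre B cells, reached 17880, 16640 and 15020 in TFH cells and 428.5, 372.6 and 914.2 in TFR cells. In Tnaive cells it was at 64.9, 188.2 and 102.7 and in Treg cells at the floor of 20 on all 3 arrays, below background. Its rise in TFR cells was at least 8.25-fold, and the fitted lineage difference of 2.54 ± 0.55 had an adjusted p of 0.016. Il4, the switch cytokine for IgG1 and IgE, stood at 37250, 41530 and 41850 in TFH and at 2697, 4169 and 3715 in TFR cells, from 114.2, 762.8 and 543.7 in Tnaive and 667.6, 554.7 and 234 in Treg cells. Starts overlapped and ends did not. The difference was 3.82 ± 0.84. By limma, the Il21 call was lost without slide 1 (1.96, adjusted p = 0.147) or slide 3 (2.97, adjusted p = 0.0566). The Il4 call was lost without slide 2 (4.31, adjusted p = 0.104) or slide 3 (4.60, adjusted p = 0.0612). Both were also lost with no filter, and Il4 with the 3 within-slide values alone (adjusted p = 0.0573).

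Inhibitory and costimulatory receptors joined them. Pdcd1, encoding PD1 and used as a sort gate, rose by 6.37 and 3.42, so that its steps are partly set by the sort. Tigit, an inhibitory receptor, rose from 99.9, 156.2 and 56.3 to 16670, 14300 and 7443 in the helper lineage and from 3157, 1133 and 692.9 to 13870, 14110 and 13480 in the regulatory lineage. TFH and TFR cells overlapped, and the lineage difference of 3.63 ± 0.56 lay in the start, where Treg cells were higher by 3.82. Icos, a costimulator needed for follicular cells, behaved likewise with steps of 2.93 and 1.22 and a start gap of -1.52. Of its other tested probes, 1 gave 1.79 and 1 gave 0.71, which was not called. The Icos call was lost without slide 1 (1.13), slide 2 (2.06) or slide 3 (1.95) and in 4 other fits, with adjusted p up to 0.271. Sh2d1a, the SLAM adaptor SAP, had a difference of 1.04 ± 0.21 that fell below the threshold when any of 4 single arrays was left out (0.85 to 1.18 over the 12 omissions).

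Sostdc1, a secreted BMP and Wnt antagonist, had a helper step of 8.44, a regulatory step of 4.32 and a lineage difference of 4.12 ± 0.50. Its intensity was 91160, 51060 and 74680 in TFH and 1203, 1021 and 1181 in TFR cells, against 112.8, 313.7 and 236.9 in Tnaive and 57.6, 64.1 and 49.5 in Treg cells. All 4 cell types were apart from one another. Il1r1, the signalling receptor for IL-1, leaned to the helper lineage too. It measured 5720, 3308 and 2691 in TFH and 323.2, 146.2 and 79.4 in TFR cells, with at least a 48.6-fold rise over Tnaive cells, which were below background.

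**Figure D2:**
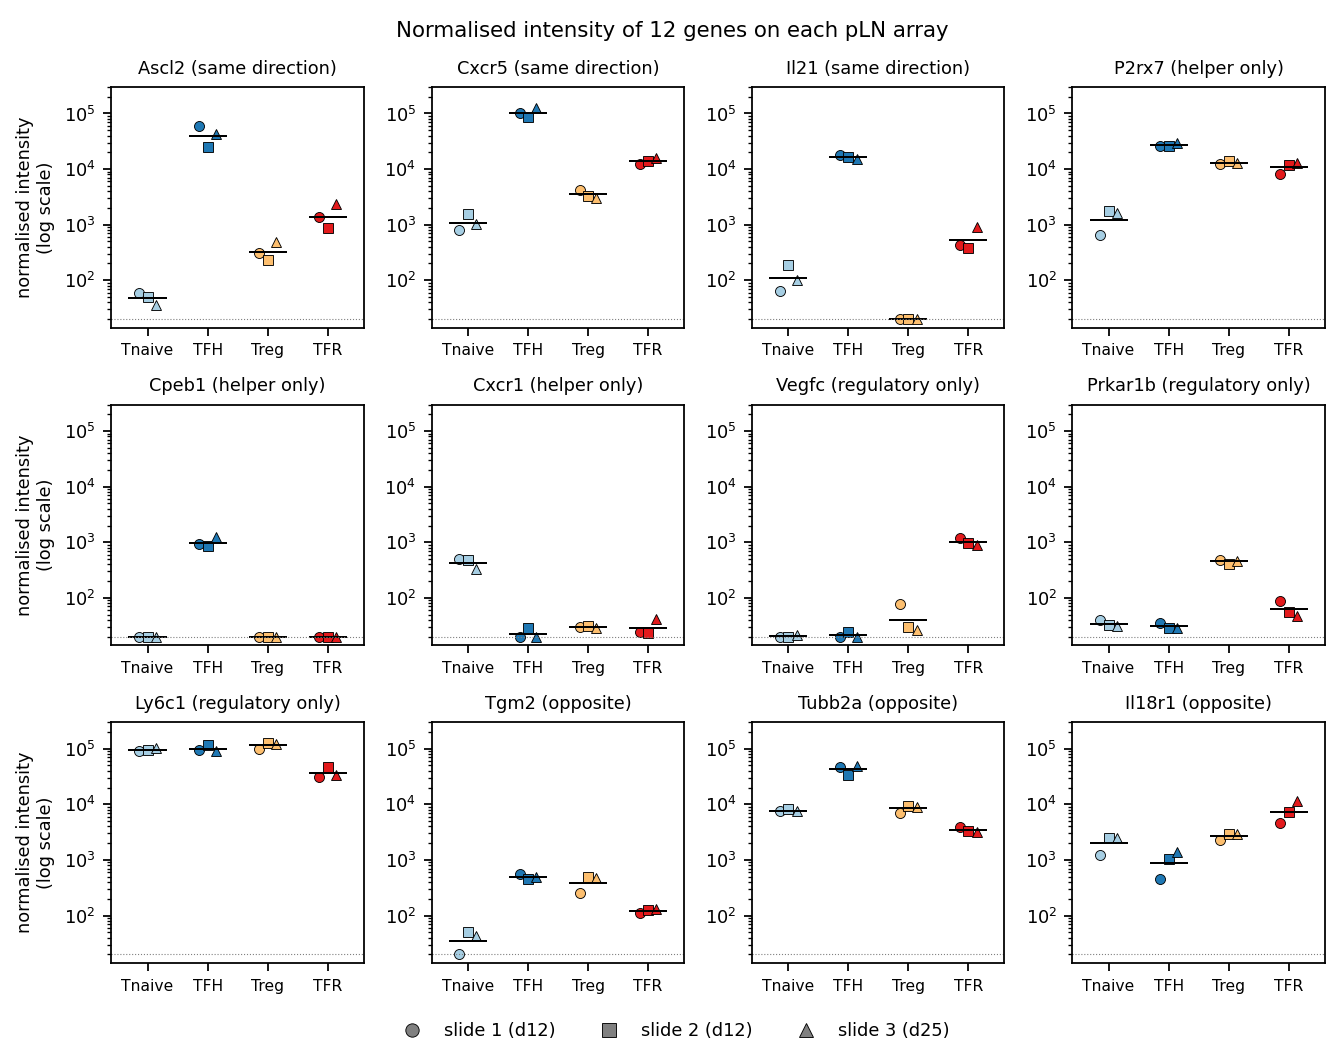
Normalised intensity (log scale) of 12 genes on each of the 12 pLN arrays, with 1 point per array shaped by slide, a line at the mean log2 value of each cell type and a dotted line at the floor of 20. Each panel names the class of the gene, and the sets range from Cpeb1, at the floor outside TFH cells, to Ly6c1, lower in TFR cells alone.

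Transcription factors of TFH cells went both ways. Of 28 listed TFH regulators, 26 were tested, 9 had a positive and 4 a negative lineage difference, and the median was 0.32. Ascl2, a basic helix-loop-helix factor that turns on Cxcr5, was at 58.9, 50.1 and 35.9 in Tnaive cells, below background, and at 59660, 24720 and 43330 in TFH cells, at least 465-fold higher. Treg cells had 309, 226.5 and 495.2 and TFR cells 1351, 864.3 and 2338, a step of 2.10. The fitted lineage difference of 7.62 ± 0.49 (adjusted p = 6.2e-05) was the widest on the list.

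Bcl6 itself rose from 5293, 5592 and 4689 to 70320, 42690 and 54740 in the helper and from 3431, 4429 and 3964 to 8794, 10250 and 16810 in the regulatory lineage. TFR cells lay above both resting types and below TFH cells on all arrays. The difference was 1.85 ± 0.36 (adjusted p = 0.0096 by limma). The Bcl6 call was lost without slide 1 (1.59, adjusted p = 0.0518) or slide 2 (1.92, adjusted p = 0.0766) and with no filter (adjusted p = 0.0567). Maf, which promotes Il21 and Il4, had 3.59 ± 0.61, and Tox2, an HMG-box factor, 2.26 ± 0.22, each with called rises in both lineages. Cebpa, better known from myeloid and fat cells, rose at least 153-fold to 16030, 8316 and 11950 in TFH cells and by 3.77 to 3549, 2389 and 2226 in TFR cells.

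Members with a negative difference included Bach2, Lef1 and Klf2. Bach2, a repressor that keeps T cells resting, dropped from 6253, 5584 and 6027 to 464, 598.9 and 642.6 in TFH and from 4458, 4068 and 4550 to 1026, 1325 and 1899 in TFR cells, with a lineage difference of -1.74 ± 0.24. Lef1, a Wnt-pathway factor, had -1.16 ± 0.21 with steps of -2.57 and -1.41, and -0.99 without d12 TFR replicate 1. Klf2, which maintains egress receptors, had -1.66 ± 0.45 (adjusted p = 0.038), a call lost in 9 of the 12 fits without a single array (-2.01 to -1.28, adjusted p up to 0.0971). Satb1, a chromatin organiser, fell by 2.88 and 2.44, and its difference of -0.44 was not called. Tcf7, at 0.41, and Id2, at -0.93, were not called either. Id3, an inhibitor of E proteins, had 1.05 ± 0.17 with neither step called, and 0.90 and 0.99 without the d25 TFH or TFR array.

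Prdm1, encoding Blimp-1, the antagonist of Bcl6, changed in the regulatory lineage only. It stayed at 703, 450.8 and 521.5 in Tnaive and 820.5, 449.8 and 407.3 in TFH cells and rose from 1651, 823 and 780.5 in Treg to 2242, 2223 and 3056 in TFR cells. TFR cells were above all other arrays. The difference was -1.33 ± 0.36 (adjusted p = 0.037), and the call was lost in 9 of the 12 single-array omissions (-1.68 to -1.04, adjusted p up to 0.0967).

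Egress and T-zone homing genes leaned the opposite way, with 10 of 19 tested members negative, 4 positive and a median of -1.36. The helper step lowered 13 and the regulatory step 10. Il7r, the survival receptor for IL-7, fell from 43890, 35060 and 34940 to 1664, 2211 and 3614 in the helper lineage, whereas Treg cells already had 13150, 8182 and 9254 and TFR cells 6759, 4925 and 8820. The regulatory step of -0.59 was not called and the lineage difference was -3.41 ± 0.39. Ccr7, the T-zone homing receptor, fell by 3.61 and 1.59, ending at 7114, 13030 and 11620 in TFH and 34300, 27700 and 36480 in TFR cells, from 134600, 116200 and 126400 in Tnaive and 97490, 93710 and 103200 in Treg cells. S1pr1, the exit receptor, fell by 3.68 and 2.15 and ended at 2816, 4381 and 2613 in TFH and at 10220, 9620 and 5983 in TFR cells. Members with a positive difference included Cd44, an activation marker (2.09), and Tbc1d4, a Rab GTPase-activating protein (2.71). A second probe of Tbc1d4 gave 1.28 and was not called.

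**Figure D3:**
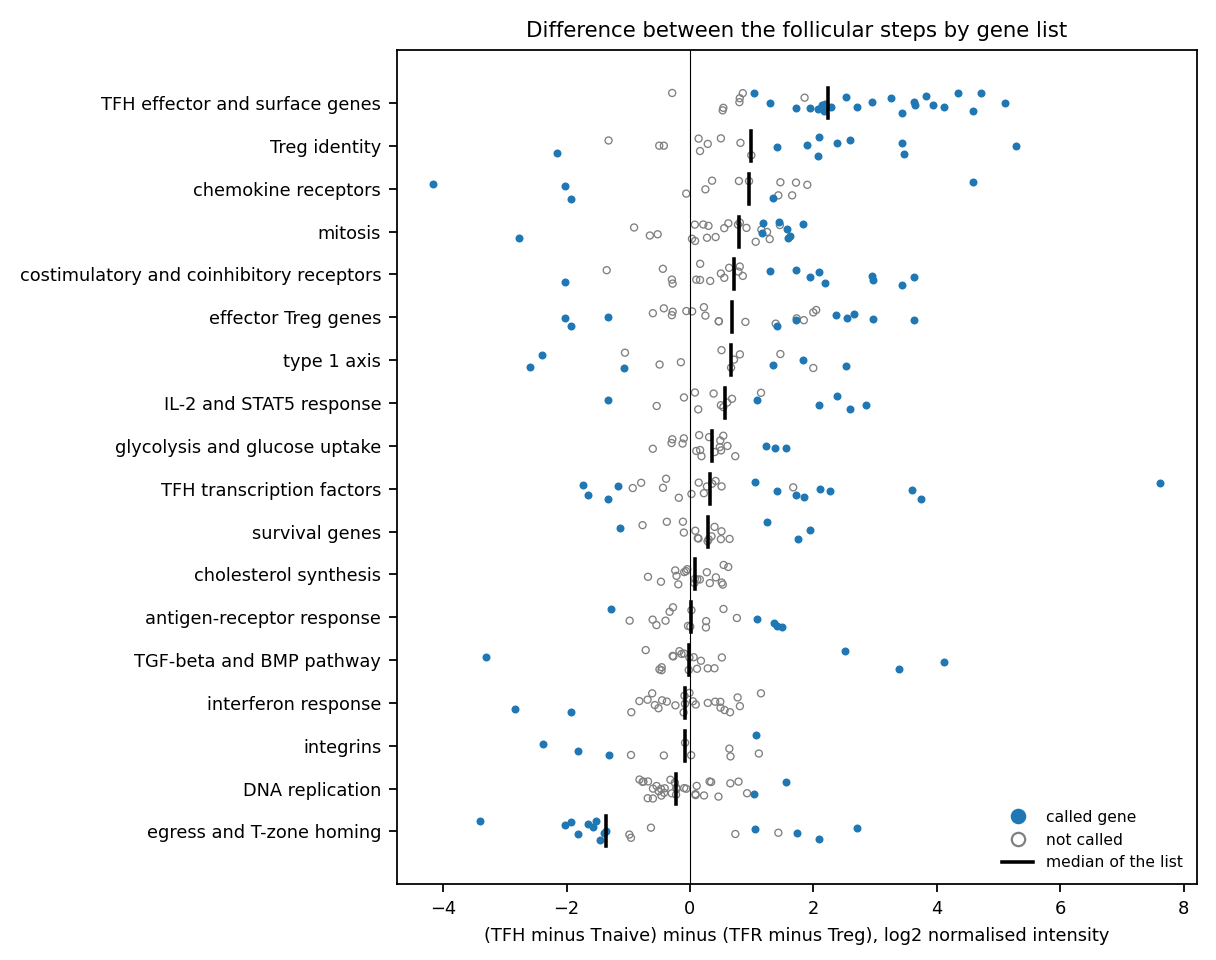
Lineage difference (log2 normalised intensity) of the tested members of 18 gene lists, with 1 point per gene, filled where called, and a bar at each list's median. TFH effector genes lie mostly to the right (median 2.23) and egress genes mostly to the left (median -1.36), while cholesterol genes centre near 0 (median 0.08).

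Genes that changed in the helper lineage only numbered 194 rising and 102 falling. For 209 of the 296, Treg and TFR cells were detected on all their arrays, while for 45 both were below background on all arrays and no regulatory step could be measured. The named risen genes are given in groups by their start, which do not cover all 194. Treg and TFR cells were below background on all arrays for 38 of the risen genes. At the start, 43 of 194 were higher in Treg than in Tnaive cells, 1 was lower and 150 did not differ by the call. Over all genes, 7.84% were called between Tnaive and Treg cells and 9.87% between TFH and TFR cells. The rule for a class partly sets these gaps among its genes.

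The first group comprised genes seen in TFH cells alone, and 5 of the 6 rising genes named by the widest probe difference belonged to it. Cpeb1, an RNA-binding regulator of translation, was at 915.1, 853.7 and 1245 in TFH cells and at the floor on the other 9 arrays, at least 13-fold above Tnaive and 16.4-fold above TFR cells. Fst, the activin antagonist follistatin, had 772.5, 573.8 and 1582 in TFH cells and was at the floor elsewhere, at least 14.7-fold above TFR cells. Fbn2, an extracellular fibrillin, Chn1, a Rac GTPase-activating protein, and H2-Q1, a class I gene with close paralogues that may share signal, followed with bounds of 16.0, 9.92 and 12.9 over TFR cells. The brightest probe of Fbn2 gave a lineage difference of 3.88, below the 5.24 of the probe used here. Arrays did not overlap between TFH and any other cell type for these 5 genes, which their choice by widest difference partly sets.

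The second group comprised genes that Treg cells already carried. P2rx7, an ATP-gated channel, was at 640.7, 1724 and 1639 in Tnaive and 26050, 25640 and 29270 in TFH cells, but at 12100, 13690 and 12610 in Treg and 8277, 11750 and 12790 in TFR cells. Treg and TFR arrays overlapped, with a step of -0.25, and the lineage difference was 4.72 ± 0.36 (adjusted p = 0.00012). Ctla4, the inhibitory receptor, rose by 3.93 to 13790, 6589 and 6963 in TFH cells, which overlapped with Treg (7352 to 13800) and TFR cells (11540 to 16440). Its regulatory step was 0.50. Il2rb, the beta chain of the IL-2 receptor, rose by 3.02 in the helper lineage and had a regulatory step of 0.17 that was not called, with a difference of 2.86 ± 0.17 (adjusted p = 4.8e-05). Tex33, a gene known from testis, rose from below background to 821, 765.9 and 699.4 in TFH cells, at least 9.98-fold, while Treg and TFR cells overlapped between 207.7 and 344.3.

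The 102 falling genes included a set that only Tnaive cells held. Elovl7, a fatty-acid elongase, was at 370.7, 630.8 and 633.8 in Tnaive cells and below background in the other 3 cell types, at least 10.2-fold above TFH and 8.16-fold above Treg cells. Cxcr1, a receptor for CXC chemokines of neutrophils, had 490.9, 480.1 and 331.1 in Tnaive cells and was below background elsewhere, at least 8.22-fold above TFH cells. Arhgap29 and Dmbt1 had the same layout, with bounds of 6.06 and 3.98 over TFH cells. Ggt5, which cleaves glutathione and leukotrienes, fell from 896, 1070 and 1039 to 66.9, 63.2 and 65.2, and Amz1, a metallopeptidase, from 821.2, 1130 and 1272 to 106.5, 78.7 and 94.9. At the start, 35 of the 102 were higher in Tnaive than in Treg cells.

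Among genes of the regulatory lineage only, 55 rose and 32 fell. In 33 of the 87, Tnaive and TFH cells were below background on all arrays, and in 40 they were detected on all. At the end, 45 of the 55 risen genes were higher in TFR than in TFH cells. The rule for the class partly sets this, because it asks for a called negative lineage difference and 45 of the 55 had no called start gap. Vegfc, a lymphatic growth factor, was at 1180, 982.8 and 878.4 in TFR cells, at 76.3, 30.5 and 26.8 in Treg cells and between 20 and 24.6 on the Tnaive and TFH arrays. TFR cells exceeded TFH cells at least 19.4-fold, and the fitted lineage difference was -4.60 ± 0.42. Dscam, a cell-adhesion molecule best known from neurons, had 1279, 956.5 and 1773 in TFR cells and at most 79.3 on any other array, at least 24.9-fold over TFH cells. Tdpoz4, Muc16, a cell-surface mucin, and Bicd1, an adaptor of dynein transport, were detected in TFR cells alone, with bounds over Treg cells of 6.02, 3.42 and 3.27.

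Ccr8, a chemokine receptor of effector Treg cells, rose from 598.7, 244 and 283 to 2248, 1276 and 1484 in the regulatory lineage, while Tnaive (111.6 to 244.2) and TFH cells (134.1 to 240.9) overlapped. Its lineage difference was -1.93 ± 0.21. Galnt14, which starts mucin-type glycosylation, rose from 61.8, 120.5 and 151 to 604.7, 825.5 and 1378. In each of these genes the 3 TFR arrays lay above all 9 others. Apart from Ccr8, they were named for wide differences, so this separation is partly set by the choice. Its share over all genes was not counted.

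The genes named among the 32 that fell in the regulatory lineage only showed 2 layouts, and the rest were not sorted by layout. Tnaive and TFH cells were below background on all arrays for 9 of the 32 and detected on all for 22. In the first, Treg cells alone held the transcript. Wfdc2, a secreted protease inhibitor, was at 416.8, 601.6 and 600.3 in Treg cells and between 20 and 35.5 elsewhere, at least 8.73-fold above TFR cells. Gbp2b, an interferon-inducible GTPase with close paralogues, Stra6, a retinol transporter, and Acvr1c, an activin-type receptor, showed the same with bounds over TFR cells of 5.69, 3.14 and 2.5. Acvr1c lost its call when each array was raised to its lowest detected intensity (0.77, adjusted p = 0.408). Prkar1b, a regulatory subunit of protein kinase A, fell from 481.2, 413.4 and 464.2 to 89.3, 56.7 and 46.8. Khdc1a went from 460.3, 435.3 and 371.5 to 48.3, 45.8 and 74.5.

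In the second, the transcript was lower in TFR cells alone, where it was still bright. Ly6c1, a surface marker of memory and effector T cells with the near-identical Ly6c2, measured 89860, 95700 and 102400 in Tnaive, 96590, 116800 and 90170 in TFH and 99240, 125500 and 124000 in Treg cells. TFR cells had 30710, 47800 and 33570, below all other arrays. The regulatory step was -1.66 and the lineage difference 1.73 ± 0.18 (adjusted p = 0.00051). A second Ly6c1 probe gave 0.76 with an adjusted p of 0.0908.

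Steps in opposite directions were called for 16 genes, of which 11 rose in the helper and fell in the regulatory lineage. The 6 with the widest differences and Il18r1 are given. Tubb2a, a beta-tubulin with close paralogues, stood at 7559, 8107 and 7533 in Tnaive and 7124, 9433 and 9119 in Treg cells, which overlapped. It rose to 47960, 33330 and 49370 in TFH cells and fell to 3838, 3276 and 3172 in TFR cells, with steps of 2.47 and -1.31 and a difference of 3.79 ± 0.24 (adjusted p = 5.9e-05). Tgm2, a transglutaminase that cross-links proteins, was below background in Tnaive cells and reached 558.8, 457.6 and 497.9 in TFH cells, at least 6.6-fold more. It fell from 256.5, 485.8 and 479.4 in Treg to 113.1, 123.5 and 131.2 in TFR cells, and the fitted difference was 5.53 ± 0.38. Its brightest probe gave 3.49.

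Sema7a, a membrane-anchored semaphorin, rose from 118.2, 235.9 and 86.1 to 764.4, 1040 and 881.9 and fell from 241, 360.6 and 273.3 to 104.9, 122.2 and 81.4. Osgin1, an oxidative-stress-induced growth inhibitor, rose from 235.3, 189.6 and 169.8 to 824.8, 685.4 and 1384 and fell from 909, 1484 and 1011 to 205.3, 204.7 and 376.6. In both, the resting and follicular arrays of each lineage were fully apart, which their choice by widest difference partly sets. Sp6, a zinc-finger factor, had steps of 1.15 and -2.16. Its Treg arrays (1893 to 2393) were above all others.

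Il18r1, a receptor chain for IL-18, moved the other way. It fell from 1239, 2529 and 2494 in Tnaive to 456.8, 1025 and 1394 in TFH cells and rose from 2317, 2953 and 2974 in Treg to 4549, 7189 and 11440 in TFR cells. On each slide the helper value dropped and the regulatory value rose, although Tnaive and TFH arrays of different slides overlapped. The lineage difference was -2.59 ± 0.30 (adjusted p = 0.00082). Car2, a carbonic anhydrase, fell by 2.14 to 118.6, 279.8 and 470.8 in TFH cells and rose by 1.28 to 627.8, 950.3 and 939.8 in TFR cells.

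**Figure D4:**
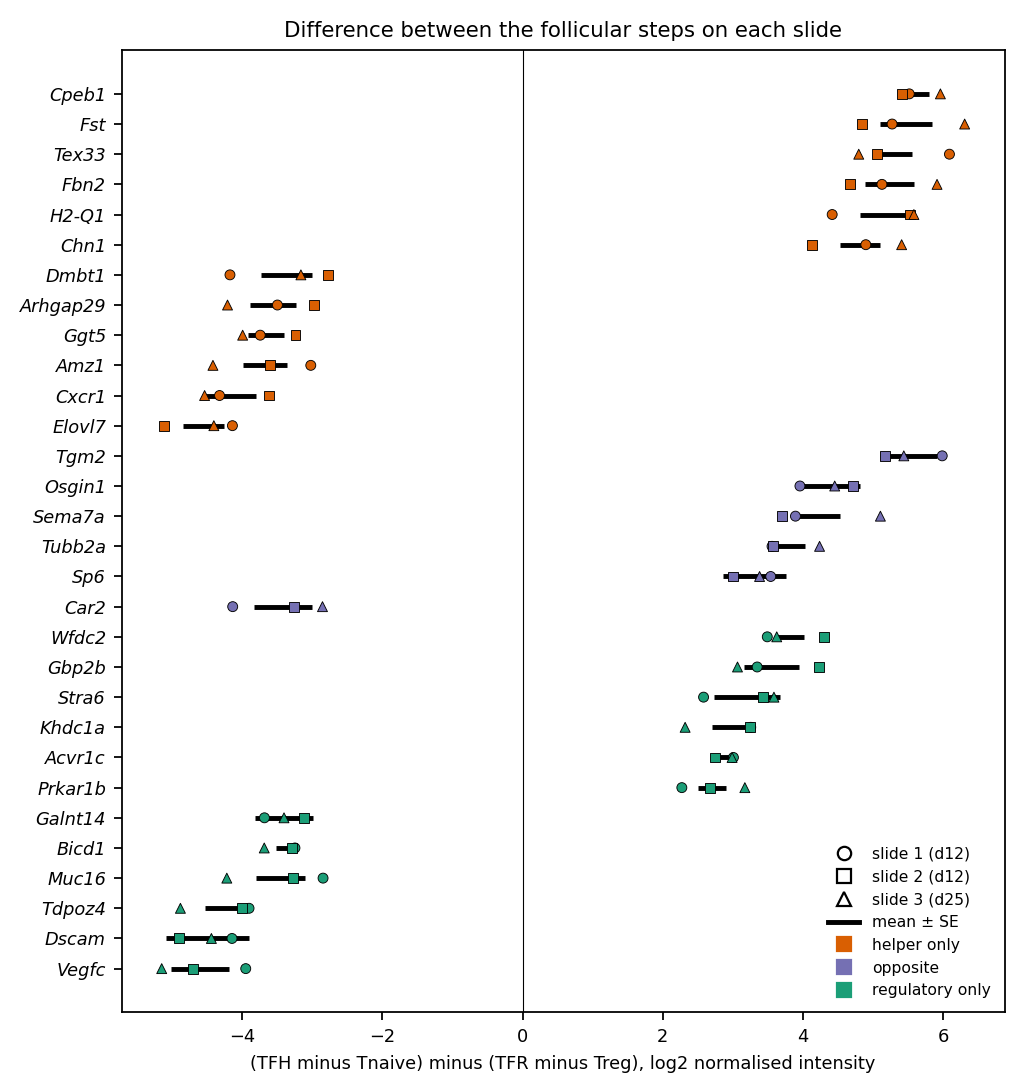
Lineage difference (log2 normalised intensity) on each slide for the leading genes of the helper-only, opposite and regulatory-only classes, with points shaped by slide and a bar of mean ± SE from limma. The genes were chosen for an equal sign on all slides, so the spread of the 3 points is what the plot adds, and the opposite-direction genes run from Tgm2 (5.53) to Car2 (-3.42).

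Genes of Treg identity did not move as a block. Of 19, 9 had a positive and 1 a negative lineage difference, with 17 called at the start and 14 at the end. Foxp3 had a regulatory step of -0.19, not called, and a helper step of -1.50 at its low level, and its lineage difference of -1.32 was not called (adjusted p = 0.0606). Lrrc32, the receptor GARP for latent TGF-beta, had 0.29 and was 7.49 lower in TFH than in TFR cells. Ikzf2, encoding Helios, by contrast rose at least 74.4-fold in the helper lineage to 5878, 6093 and 6497 in TFH cells, near the 7274, 7652 and 6808 of Treg cells, and by 1.05 to 9676, 15650 and 22390 in TFR cells. Nrp1, a semaphorin co-receptor, rose by 4.54 and 1.07. Il2ra, the IL-2 receptor alpha chain, rose by 2.01 in the helper lineage but stayed at 536.6 to 760.4 in TFH cells, against 14260 to 18070 in TFR and 17420 to 28050 in Treg cells. Its lineage difference of 2.38 ± 0.35 thus left an end gap of -4.63. Ikzf4, the Eos factor, was the negative member (-2.16).

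The IL-2 and STAT5 list had 5 positive and 1 negative of 16 members. Socs2, a cytokine-signal inhibitor, rose by 1.66 in the helper lineage and had a regulatory change of -0.93 that was not called. Tnfrsf4, the OX40 costimulator, had 2.08 ± 0.21, again with Treg and TFR cells higher throughout. Among 26 effector Treg genes, 7 were positive and 3 negative, while the helper step raised 21 and the regulatory step 18. Lag3, an inhibitory receptor, had 2.96 ± 0.45 and Zbtb32, a repressor of activation, 2.65 ± 0.53, both rising in both lineages. Zbtb32 was below background in Tnaive cells and lost its call with the raised floor (1.49, adjusted p = 0.152) and without slide 3 (adjusted p = 0.139), with values down to 1.07 over the alternatives. Penk, encoding proenkephalin, had 2.55 ± 0.68, lost in 7 of 12 single-array omissions (1.92 to 2.96, adjusted p up to 0.0945). Il10 (1.84), Gzmb (2.0), Ccr6 (0.25) and Nrn1 (0.04) had no called lineage difference. The last rose by 3.24 and 3.21.

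On the type 1 axis, 3 of 15 tested genes were positive and 3 negative, beside 5.27% and 3.42% of all tested genes. Ifng rose in both lineages, from below background to 1234, 2603 and 4143 in TFH cells and from 207.5, 119.4 and 327.1 to 1153, 2458 and 3538 in TFR cells. The ends overlapped. The fitted lineage difference was 2.52 ± 0.46, and the call was lost with each array raised to its lowest detected intensity (1.53, adjusted p = 0.0688) and without slide 3 (adjusted p = 0.108). Il12rb1, an IL-12 receptor chain, had 1.82 ± 0.18. Runx3, a factor of cytotoxic and type 1 cells, fell by 1.90 in the helper lineage and had a regulatory change of 0.50 that was not called, with a difference of -2.40 ± 0.33. The other called members were Stat4 (1.34) and Nkg7 (-1.07). Tbx21 (0.67) and Cxcr3 (1.47) were not called.

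Mitosis genes rose in both lineages, most of them from unequal starts. Of 28 mitosis genes tested, the helper step raised 27 and the regulatory step all 28. Treg and Tnaive cells differed in 20 of them, but TFH and TFR cells in only 3, and 7 had a positive and 1 a negative lineage difference. Ube2c, a ubiquitin-conjugating enzyme of anaphase, went from 408, 642.6 and 186.3 to 13760, 11850 and 5871 and from 4132, 2166 and 858.1 to 24000, 17100 and 8260. Mki67 rose by 4.94 and 4.16 with a difference of 0.78 that was not called. Kif23, a kinesin of cytokinesis, was the negative gene: it had 811.8, 717.7 and 641.3 in Tnaive and 763.2, 1008 and 441.8 in TFH cells and rose by 2.73 in the regulatory lineage only. Another probe of Tpx2, a spindle factor with 1.63 ± 0.34, gave -1.01 and was not called. Of 33 DNA replication genes, the helper step raised 22 and the regulatory step 26, and 7 differed at the start. Positive were 2 of them (Tk1 with 1.56 and Rrm2 with 1.04), and the median was -0.22. Over all tested genes, 5.27% were positive and 7.84% differed at the start, while the steps raised 13.1% and 10.4%. Rrm2 lost its call in 9 of 12 single-array omissions (0.76 to 1.24, adjusted p up to 0.0966).

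Metabolic and signalling lists followed, to be read beside the 5.27% positive and 3.42% negative of all tested genes. Of 20 glycolysis genes, 3 were positive, among them Pfkp, a phosphofructokinase, with 1.23 ± 0.17 in the helper lineage only, and Aldoc, an aldolase, with 1.37 ± 0.25. Hk2, a hexokinase, had 1.55 ± 0.43 and lost its call in 8 of 12 single-array omissions (1.10 to 1.84, adjusted p up to 0.102). None of 19 cholesterol synthesis genes was called (median 0.08). Of 26 interferon-response genes, 2 were negative, Oas2 (-2.83) and Ifi44 (-1.93), while the helper step lowered 11 and the regulatory step 7. Over all tested genes, these steps lowered 8.05% and 4.39%. In the antigen-receptor list, 4 of 18 were positive, such as Egr2 (1.5 ± 0.22) and Nfkbid (1.35 ± 0.16), and Myc was negative (-1.28 ± 0.24).

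Adhesion and growth-factor genes gave single strong members. The counts of the lists below stand beside 5.27% positive and 3.42% negative of all tested genes. Smad7, the inhibitor of TGF-beta signalling, fell from 1581, 3520 and 3065 to 58.4, 159.4 and 138.7 in the helper and from 990.7, 2379 and 2608 to 470.8, 905.8 and 1041 in the regulatory lineage. Its lineage difference of -3.30 ± 0.16 (adjusted p = 1.85e-05) compared with a median of -0.02 for the 21 tested genes of the TGF-beta and BMP list. Tgfb3 (2.51 ± 0.39) and Bmp7 (3.38 ± 0.53), both ligands of the family, were positive with Sostdc1. Of 11 integrin genes, 3 were negative, Itgb3 (-2.37 ± 0.22), Itga4 (-1.81 ± 0.27) and Itga6 (-1.31 ± 0.14). A second probe of Itgb3 gave -1.14 and was not called. Itgal was positive with 1.06 ± 0.16, a value between 0.98 and 1.17 over the single-array omissions, 4 of which ended the call. Among 15 chemokine receptors, Cxcr5 and Ccr9 (1.35) were positive and Ccr7, Ccr8 and Cxcr1 negative. Of 24 costimulatory and coinhibitory receptors, 9 were positive and 1, Havcr2, negative (-2.02). Among 18 genes of the survival list, which holds pro-death genes as well, 3 were positive. These were Bcl2a1d (1.75 ± 0.25) and the pro-death genes Pmaip1 (1.95 ± 0.44) and Fas (1.24 ± 0.18). The death receptor gene Tnfrsf10b was negative (-1.13 ± 0.15). Pmaip1 had adjusted p = 0.0515 and 0.0546 without d12 TFR replicate 2 or d25 TFH. Vdr, the vitamin D receptor, rose at least 32.3-fold to 2790, 2612 and 2042 in TFH and at least 1.77-fold to 71.5, 115.3 and 174.6 in TFR cells.

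Transcripts of other cells were present at uneven levels. Of 13 B-cell markers, 6 or 7 were detected on all arrays of each cell type, and their summed intensity was 8120 to 25000 in Tnaive, 11300 to 50600 in TFH, 18300 to 28700 in Treg and 16700 to 25800 in TFR cells, highest on the d12 TFH array of slide 1. The median lineage difference was 1.07 over the 8 tested B-cell markers, with a median regulatory step of -1.16, and 1.15 over the 5 tested germinal-centre B-cell and plasma-cell markers, against -0.03 over all genes. Cd22 was the called B-cell marker (1.43 ± 0.36), lost in 7 of 12 single-array omissions (1.07 to 1.67, adjusted p up to 0.0797). In the germinal-centre B-cell and plasma-cell list, Xbp1 (1.37) and S1pr2 (3.40), which TFH cells also use, were positive. CD8 and NK-cell markers summed to 19300 to 24400 in Tnaive and 7730 to 12600 in TFH cells. In Treg and TFR cells the sums were 12300 to 15800 and 5790 to 8830. The median lineage difference over the 7 tested markers of this list was 0.63. Its 2 called markers, Prf1 (-1.04 ± 0.13) and Klrd1 (-1.27 ± 0.25), were negative. Prf1 was at -0.95 without either slide 1 helper array. Cd68 was positive among the myeloid markers (1.28) and Epcam negative among the epithelial markers (-1.45). Germinal-centre B-cell and plasma-cell markers summed to 45000 to 136000 in TFH and 27800 to 63400 in the other cell types, again highest on the d12 TFH array of slide 1. Myeloid markers summed to 79200 to 119000 and stromal, endothelial and epithelial markers to 3450 to 5020 over all arrays. Of erythroid and platelet markers, 4 of 6 were below background in every cell type. The part of these cells in the lineage differences was not tested.

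Peyer's patch (PP) arrays, which the lineage difference did not use, gave the regulatory step a second time, on 2 slides with 1 array of each cell type. In PP, 8.87% of the tested genes rose and 5.19% fell from Treg to TFR cells. Genes that changed in the regulatory lineage only kept their direction by median, and genes of the helper lineage only moved, by median, in the direction of the pLN helper step. Of the 192 helper-only rising genes measured in PP, 60 rose and 4 fell, with a median step of 0.66 (0.643 and 0.711 on the single slides) against 0.0965 in pLN. Of 93 helper-only falling genes, 1 rose and 23 fell. Of 47 regulatory-only risen genes, 22 rose and 2 fell, and of 32 regulatory-only fallen genes, 17 fell and 0 rose. For the 5 opposite genes that rose in pLN TFR cells, the PP median was -0.06, and for the 11 that fell there, with a pLN median of -1.58, it was -0.259, with 1 called higher and 1 lower. The pLN values had chosen the classes, and the difference between tissues was not tested.

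**Figure D5:**
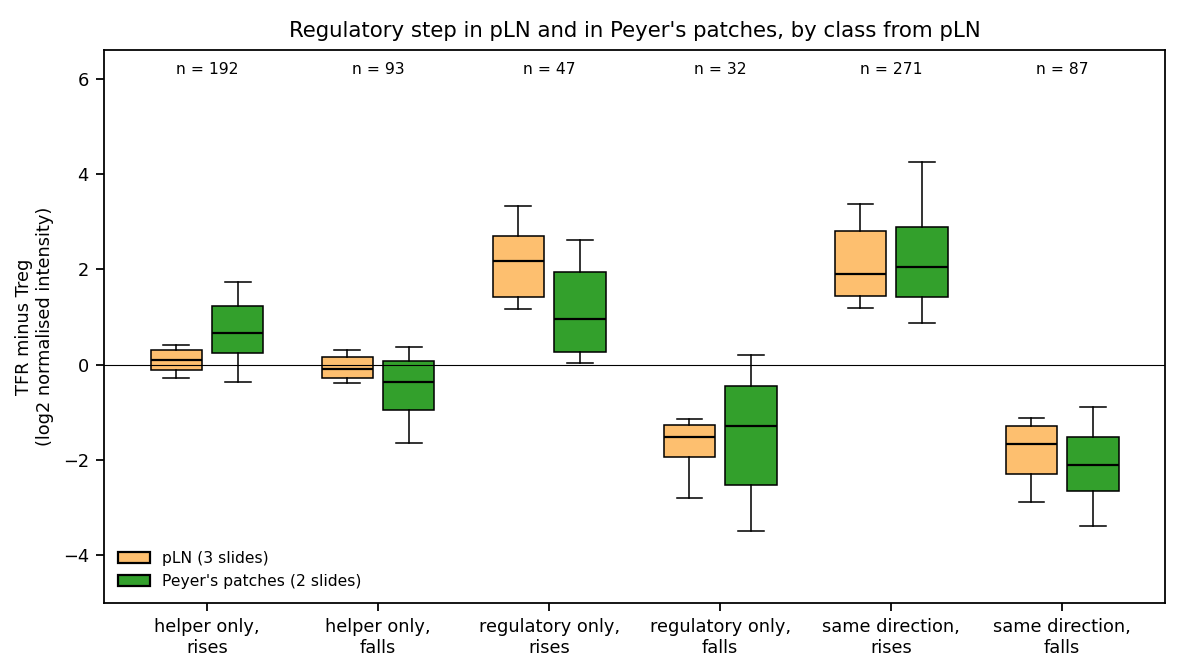
Regulatory step (TFR minus Treg, log2 normalised intensity) in pLN and in Peyer's patches for the genes of 6 classes set from the pLN values, with boxes for the quartiles and whiskers for the 10th and 90th percentiles. Helper-only rising genes centre at 0.0965 in pLN and 0.66 in Peyer's patches.

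Single genes showed how far the PP step could depart. Ascl2 went from 216.5 and 168.6 in PP Treg to 17630 and 9858 in PP TFR cells, a step of 6.11 beside 2.10 in pLN. Bcl6 had 3.19 beside 1.55. Vegfc rose in PP as well, by 3.37, from 20 and 25.7 to 203.2 and 268.9, and Ly6c1 fell by 3.50. Prdm1, which rose in pLN, had -0.81 in PP and was not called. Il18r1, risen in pLN, fell in PP by 1.77, from 3719 and 5134 to 664.1 and 2473. Il2ra, with -0.37 in pLN, fell in PP by 2.96, from 13580 and 17260 to 1191 and 3268.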

How the data were processed

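Total RNA of sorted cells was amplified to cRNA, labelled with 1 dye and hybridised to Agilent arrays. The deposited scanner files (Agilent Feature Extraction 10.7.3.1, per the labels) give the background-subtracted intensity of each feature and other columns with quality marks. The series matrix of the authors holds normalised intensity. Following the authors' steps, the geometric mean over the 4 features of each of 39429 probes was taken after removal of outlying features (8.39% to 12.3% per pLN array), quantile normalised over all 20 arrays, brought to a common 75th percentile (1500), with values below 20 raised to that floor, and log2 transformed. Values differed from the authors' by a median of 0.0347 to 0.0362 (log2) per array. No probe was saturated.

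A probe was detected with at least 3 of 4 features well above background, and tested if detected on all 3 arrays of at least 1 of the 4 pLN cell types. A linear model of cell type and slide (limma 3.58.1, R 4.3.3, 6 residual degrees of freedom) gave two-sided p-values, adjusted by Benjamini-Hochberg over all tested probes. The PP step was fitted on its own 8 arrays. A cell type below background on all arrays gives a bound, "at least", against each array's lowest detected intensity (20 to 144).

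Of the probes, 27592 were named by accession and 3885 by symbol through a RefSeq table. Named genes were 40 fixed genes, up to 4 called members of each of 24 lists, and the 6 widest genes of each class that had the same sign on all slides and were detected at the higher end of the called step. Ikzf4, Ccr9, Havcr2, Stat4 and Nkg7 were named after their values were seen. Members and lists were chosen with earlier results of these data known. Alternatives covered normalisation, filter, slide term and left-out arrays or slides. Items withheld from this text are not reported here.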

Additional observations from a re-analysis of the deposited data

Results flagged for a closer look

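The helper and the regulatory step differed, by the test of their difference, for 1075 genes. In 7 named genes the steps also pointed in opposite directions, with lineage differences of 5.53 for Tgm2, 4.37 for Osgin1, 4.23 for Sema7a, 3.79 for Tubb2a, -3.42 for Car2, 3.31 for Sp6 and -2.59 for Il18r1. All 7 kept their sign under every alternative in which they were tested, though these reuse the arrays that gave the calls. The difference in the GL7 gate between TFH and TFR cells cannot be told apart from the lineage in any of them.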

How the results depend on the processing

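Named genes with a called lineage difference kept their sign in all alternatives that changed the samples, model, normalisation or filter (2839 values), and 2582 of these values kept the call. No sign changed, except for another probe of Tpx2 (-1.01). The calls came from these same arrays, so a kept sign is no separate support for them. Of 33 other probes of these genes, 26 were called. Without 1 slide, 88 (slide 1), 82 (slide 2) and 79 (slide 3) of them kept their call, and 94 kept it in each of the 12 fits without 1 array. Over the 12 fits without 1 array, the probes called were 1238 to 1514 for the lineage difference (main count 1410). They were 3540 to 3977 for the helper step and 2412 to 2649 for the regulatory step. The start gap had 1114 to 1349 and the end gap 1496 to 1838. By class they were 342 to 420 helper only, 88 to 118 regulatory only, 20 to 29 opposite and 379 to 484 same direction, with 554 to 719 gaps opening, 323 to 399 closing and 55 to 72 reversing. The lowest count, 1238, was without d12 TFR replicate 2, the array of high background.

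Counts that moved over 1.5 times are given, with the main count of probes first. With 12 group means and d12 alone, the lineage difference went from 1410 to 518, the start gap from 1283 to 846, the end gap from 1661 to 1060, helper only from 378 to 160, regulatory only from 112 to 36, opposite from 24 to 11, same direction from 476 to 148, and gaps that opened, closed or reversed from 616, 379 and 67 to 227, 177 and 31. This fit has fewer pLN arrays and no slide term. With probes detected on all 12 pLN arrays, which are fewer, the respective counts were 724, 573, 826, 235, 35, 14, 179, 313, 181 and 27, with 2215 for the helper and 1152 for the regulatory step. Classing only probes detected in all 4 cell types, chosen after seeing the data, gave 229 helper only, 34 regulatory only, 13 opposite and 171 same direction, with gaps of 303, 181 and 26. No slide term gave 63 regulatory only and 314 same direction, and 1591 in place of 2975 probes for the PP step. Normexp background gave 853 for the start gap, 10 opposite, 274 same direction and 31 reversed gaps. Same direction was 286 with no filter, 296 with the floor at the lowest detected intensity and 274 without slide 3. Without slide 2 the lineage difference was 916, regulatory only 69, same direction 283 and gaps that closed 251. The cause of the other moves was not tested. The single PP slides allow no test, and their medians are given with the result. Raising the floor moved the median of the integrins from -0.08 to -0.53 and that of Treg identity from 0.99 to 1.41, and ended the calls of Ifng, Zbtb32, Hk2, Tpx2, Dmbt1 and Acvr1c. The slide is the block of the design. No paired analysis beyond it was possible because the labels give no replicate numbers. Signal over background limits what the arrays can show: 333 of the 1075 genes had a cell type below background on all its arrays.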
